A study of Danio rerio with 16 samples.

Results

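Ovary tissue of zebrafish treated in culture with A8535 was compared with ovary tissue given the solvent DMSO alone. The comparison took the 4 A8535 libraries and the 4 Control libraries, 8 of the 16 libraries of the series, and was described across all genes of their count table. Rows of genes on alternate scaffolds of the GRCz11 assembly were summed with the primary row of the same gene, which turned 28228 rows into 24779 genes. Of these, 15819 passed the filter on low counts and were tested.

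The A8535 group received 5 µM A8535 for 6 h, and the Control group received DMSO for the same 6 h. Of the other groups of 4 libraries, one received PT-91 at the same 5 µM for 6 h and one received the peptide PNX-20 at 100 nM for 6 h. All tissue came from wild-type adult females and held early-stage follicles together with the stroma around them. The ovaries of each fish were cut into sections that went to wells with different treatments, and no source used here tells which libraries share a fish. Libraries were chosen for high RNA integrity. Each is bulk poly A RNA of mixed oocytes and somatic cells, so fewer cells of a type and less RNA per cell cannot be told apart.

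The receptors behind the experiment are the super conserved receptors expressed in brain (SREBs), orphan G protein-coupled receptors with very similar sequences across vertebrates. SREB1 is encoded by gpr27, and A8535 and PT-91 are synthetic SREB1 agonists. Phoenixin, cut from the Smim20 protein, is the peptide that PNX-20 stands for, and the SREB3 receptor encoded by gpr173 has been proposed to mediate its effects. In the ovary, the oocyte loads egg coat and maternal RNA, granulosa and theca cells around it make sex steroids under gonadotropins, and stroma, vessels and blood cells surround the follicle. The comparison asked which ovarian genes an SREB1 agonist alters within hours.

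The transcripts of gpr27 and gpr173 were close to or under the limit of detection, and the SREB2 gene is not among the genes described here. gpr27 held 4 reads over all 8 libraries and stood at 0 to 0.0910 CPM (counts per gene scaled to the size of the library) in the A8535 libraries and at 0 to 0.163 CPM in the Control libraries. gpr173 stood at 0 to 1.73 CPM in the A8535 libraries and at 0.406 to 1.49 CPM in the Control libraries, and neither gene passed the filter. The phoenixin precursor smim20 was better covered, with 15.8, 76.1, 32.4 and 9.97 CPM in the A8535 libraries and 11.0, 35.2, 13.4 and 32.5 CPM in the Control libraries (replicates 1 to 4 here and below). The 2 groups overlapped throughout, and its log2 fold change of 0.54 (SE 0.64) changed sign without A8535 replicate 2.

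Arrestins bind activated receptors, and receptor kinases mark receptors for them. The arrestin gene arrb2a averaged 40.4 ± 13.7 CPM with A8535 and 51.5 ± 4.72 CPM in Control (SD, n = 4 each), and its paralog arrb2b averaged 24.1 ± 7.46 CPM with A8535 and 23.3 ± 5.36 CPM in Control. For the receptor kinase genes, the log2 fold change was -0.22 (SE 0.51) in adrbk2 and 0.44 (SE 0.39) in grk6. Of 11 genes written into the list of receptors, phoenixin precursor, arrestins and kinases, 9 were in the table and 5 were tested, and none passed even an unadjusted p of 0.05.

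The A8535 libraries held 10416355 to 15104959 counted reads and the Control libraries 10915559 to 12371198. A8535 replicate 2 stood apart, with 17347 genes detected against 19787 to 21772 in the other A8535 libraries and 19851 to 21578 in the Control libraries, and it had the lowest limma-voom quality weight (0.302). Mitochondrially encoded genes took 0.703%, 3.95%, 2.31% and 0.570% of reads with A8535, and 0.497%, 1.303%, 0.190% and 0.759% in Control. In vessel, matrix and somatic cell lists, A8535 replicate 3 was usually the highest library and Control replicate 3 usually the lowest. Counts that rest on them are also given without both, a setting added once the data had been seen. Because it removes the ends of these lists, lower medians and counts there were likely to follow, though not in every list, and test nothing.

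Pairs of libraries from different groups also resembled each other closely. Alternate scaffolds hold other haplotype versions of genes, which can differ between fish. The share of a gene's reads that fell on its alternate rows was therefore compared between libraries, over 791 genes that had at least 20 reads in each of the 16 libraries and shares with an SD over 0.15. Of the 120 pairs of libraries, 7 had a correlation of these centered shares between 0.816 and 0.863, while the other 113 reached at most 0.095. None of the 7 pairs lay within a group. A8535 replicate 4 matched Control replicate 1 (r = 0.86) and PT-91 replicate 4 (0.83), A8535 replicate 1 matched Control replicate 3 (0.86), and A8535 replicate 3 matched PT-91 replicate 3 (0.84) and PNX-20 replicate 3 (0.82). A8535 replicate 2 matched no library. These correlations run across genes, which are not independent, and are given as a description. Of the 7 pairs, those between A8535 and Control joined libraries of different numbers, while A8535 replicates 3 and 4 matched same-numbered libraries of the other compounds, and no label tells whether matched libraries came from the same fish. The tests below took all libraries as independent.

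**Figure D1:**
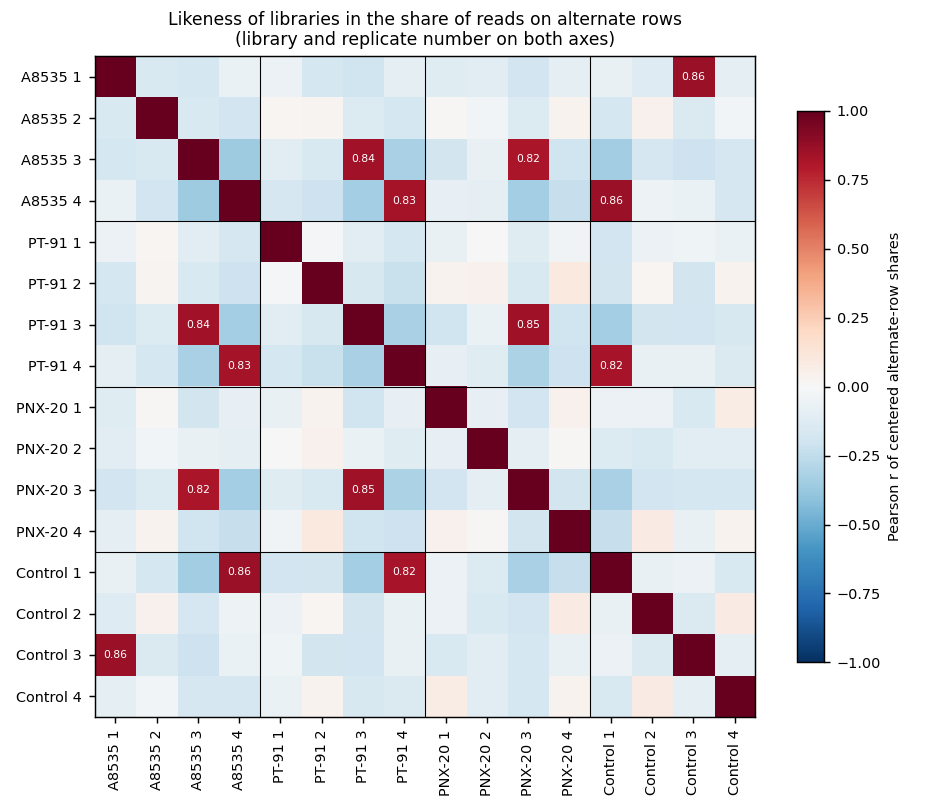
Likeness of the 16 libraries in the share of each gene's reads on alternate-scaffold rows. Both axes list the libraries by group and replicate, color gives Pearson's r over 791 genes, and the 7 pairs with printed values (0.82 to 0.86) lie between groups.

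Between A8535 and Control libraries, expression levels followed the same matches. Over 15702 genes with a mean log2 CPM of at least 0, the SD of the log2 difference between A8535 replicate 4 and Control replicate 1 was 0.51, and between A8535 replicate 1 and Control replicate 3 it was 0.87. The other 14 pairs of an A8535 and a Control library gave 1.02 to 1.76. Against PT-91, in log2 CPM with a pseudocount of 0.5, the matched pairs gave 0.54 (replicates 4) and 0.79 (replicates 3). All other pairs with PT-91 gave 0.85 to 1.44. The unmatched A8535 replicate 1 and PT-91 replicate 4, at 0.85, thus lay about as near as A8535 replicate 1 and Control replicate 3.

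In edgeR's quasi-likelihood test with Benjamini-Hochberg adjustment, 0 of 15819 genes (0%) had an adjusted p under 0.05, and the lowest adjusted p was 0.999. At an unadjusted p under 0.05 there were 444 genes (2.81% of those tested), of which 333 were higher with A8535 (2.11%) and 111 lower (0.702%). With no difference in any gene and independent libraries, about 791 genes would be expected at this threshold. DESeq2 on the same counts called 7 genes at an adjusted p under 0.05 (0.0443%) and 702 at an unadjusted p under 0.05 (4.44%). Of all genes tested, 182 had every A8535 library above every Control library (1.15%) and 159 had every A8535 library below (1.01%). A random split of the 8 libraries would give each of these in 1 of 70 cases, a larger share than either. Both expectations take the 8 libraries as exchangeable. The likeness of matched A8535 and Control libraries puts this in doubt, so the counts are not read as fewer than by chance. Groups without overlap in a gene are therefore described below and not counted as a result. The median log2 fold change over all genes was -0.04, and the median biological coefficient of variation was 0.487. Without A8535 replicate 3 and Control replicate 3 the unadjusted count was 186, of which 54.8% were higher, against 75.0% with all 8 libraries. Leaving out A8535 replicate 3 alone gave 206 genes, and leaving out A8535 replicate 4 alone gave 809.

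The 7 genes that DESeq2 called were caprin1a, kat8, arntl2, ryr2a and rpl36a, which were higher with A8535, and zgc:123096 and nhlrc2, which were lower. They and the other genes named below were picked by their p in these libraries, so that the separation of the groups in them is a description. In edgeR none of them passed the adjusted test, and the fold changes below are given with their SE. Counts over gene lists take an unadjusted p under 0.05 and stand against 2.11% higher and 0.702% lower over all genes tested. These shares hold for all 8 libraries. Without A8535 replicate 3 and Control replicate 3 only 186 genes passed, 54.8% of them higher. List counts in that setting stand against these fewer genes, so a smaller count there does not alone show a smaller excess over all genes. It partly follows from the fewer libraries and from leaving out libraries at the ends of the lists.

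caprin1a (chromosome 7, 26998208 to 27021294) encodes an RNA-binding protein of cytoplasmic mRNA granules. It had 29.7, 13.7, 16.7 and 19.7 CPM in the A8535 libraries, against 5.04, 3.01, 6.43 and 6.82 CPM in the Control libraries. Every A8535 library was above every Control library, with a wide gap between them. The log2 fold change was 1.90 (SE 0.41, unadjusted p = 0.00094 in edgeR; adjusted p = 0.0081 in DESeq2), and it stayed between 1.70 and 2.11 with any 1 library left out. Within the matched libraries the log2 difference was 2.18 between A8535 replicate 1 and Control replicate 3 and 1.93 between A8535 replicate 4 and Control replicate 1.

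kat8 (chromosome 3, 32681324 to 32688592) encodes a histone H4 acetyltransferase. Its levels were 20.5, 3.67, 11.3 and 25.2 CPM with A8535, against 1.59, 3.49, 1.98 and 1.46 CPM in Control. A8535 replicate 2 lay just above the highest Control library, and the other A8535 libraries were far above it. For the gene as a whole, the log2 fold change was 2.82 (SE 0.63, unadjusted p = 0.0012; adjusted p = 0.014 in DESeq2), and the matched libraries differed by 3.27 and 3.85. The reads sat on different rows in different libraries: in A8535 replicate 1 the alternate row held 20.01 CPM and the primary row 0.455 CPM, while in A8535 replicate 4 the primary row held 24.3 CPM and the alternate row 0.857 CPM. Neither row alone was high in all 3 of the libraries with the most kat8.

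arntl2 encodes a partner of Clock in the circadian oscillator. Its counts lay on an alternate-scaffold row, with no read on the primary row (chromosome 18, 15570910 to 15610484) in any A8535 library. It had 13.7, 9.99, 8.16 and 22.9 CPM with A8535 and 2.69, 2.36, 2.57 and 5.55 CPM in Control. Its groups were apart, and Control replicate 4 lay well above the other Control libraries. The log2 fold change was 2.05 (SE 0.50, unadjusted p = 0.0020; adjusted p = 0.048 in DESeq2), with differences of 2.34 and 3.01 within the matched libraries.

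nr5a1a (chromosome 8, 52833443 to 52861412) encodes steroidogenic factor 1, the nuclear receptor that drives genes of steroid synthesis. It had 29.2, 22.9, 54.8 and 11.0 CPM in the A8535 libraries, against 10.7, 4.79, 3.86 and 6.55 CPM in the Control libraries. All A8535 libraries were above all Control libraries, by a wide margin in 3 of them and by a narrow one in replicate 4. The log2 fold change was 2.19 (SE 0.53, unadjusted p = 0.0022; adjusted p = 0.057 in DESeq2), and 1.52 without A8535 replicate 3 and Control replicate 3. The matched libraries went apart on this gene: A8535 replicate 1 exceeded Control replicate 3 by 2.87, while A8535 replicate 4 and Control replicate 1 differed by 0.04.

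A similar split between the matched libraries was found for several other genes. bmpr2b, a type II receptor for bone morphogenetic proteins, had 12.9, 15.6, 21.6 and 6.19 CPM with A8535 and 5.20, 4.31, 2.08 and 2.91 CPM in Control. The groups did not overlap (log2 fold change 1.95, SE 0.50, unadjusted p = 0.0029), and the matched differences were 2.55 and 0.24. slc6a8, the creatine transporter gene, had a log2 fold change of 1.69 (SE 0.43) with matched differences of 2.86 and 0.81. mknk2b, a kinase that phosphorylates the cap-binding factor eIF4E, had 1.15 (SE 0.31) with 2.05 and 0.23, and the lipoprotein receptor gene lrp1aa had 1.44 (SE 0.38) with 2.56 and 0.13. In all of these genes every A8535 library was above every Control library.

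mtdha, the metadherin gene, varied least among the A8535 libraries relative to its mean, of the 12 higher genes with the smallest p. It held 89.02, 88.3, 110.1 and 87.5 CPM with A8535, against 59.7, 28.4, 24.6 and 39.1 CPM in Control. All values of the groups were apart, and the log2 fold change was 1.31 (SE 0.30, unadjusted p = 0.0016), with matched differences of 1.85 and 0.55.

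In other genes with a small p, some A8535 libraries lay at or near the Control range. ryr2a, a calcium release channel gene, had 1.00, 11.6, 22.3 and 1.63 CPM with A8535 and 1.01, 0.406, 0.594 and 0.546 CPM in Control, so that only replicates 2 and 3 stood far above the Control libraries. The log2 fold change of 3.82 (SE 0.99) had an adjusted p of 0.048 in DESeq2. rpl36a, a ribosomal protein gene whose reads can be shared with near-identical copies, had 17.4, 113.4, 350.4 and 128.4 CPM with A8535 and 5.04, 28.8, 7.92 and 25.0 CPM in Control. The lowest A8535 library fell inside the Control range (log2 fold change 3.19, SE 0.85; adjusted p = 0.048 in DESeq2). lrrc59, which encodes a membrane protein of the endoplasmic reticulum, overlapped in the same way, with 20.02, 7.96, 73.5 and 42.5 CPM against 4.03, 6.91, 5.35 and 10.0 CPM in Control.

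**Figure D2:**
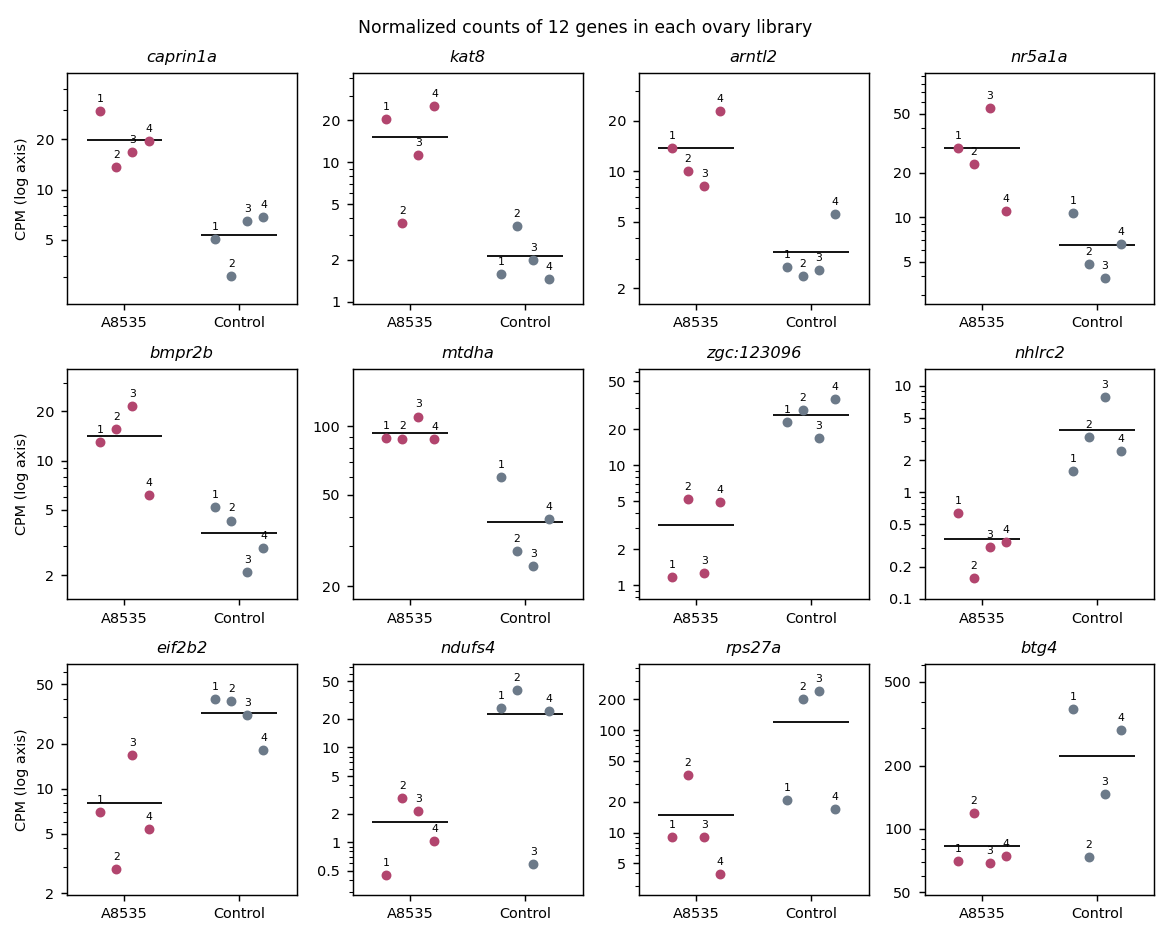
Normalized counts (CPM, log axis) of 12 genes in the 4 A8535 and 4 Control libraries. Each point is a library with its replicate number and the black line is the group mean, and the 6 genes up to mtdha were higher in every A8535 library than in any Control library.

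Among lower genes, zgc:123096 (chromosome 9, 24121106 to 24123781) had the smallest p of the genes named here. It had 1.18, 5.23, 1.28 and 4.98 CPM in the A8535 libraries, against 23.2, 28.9, 16.9 and 35.8 CPM in the Control libraries. All A8535 libraries were several times lower than the lowest Control library. Its fitted log2 fold change was -3.05 (SE 0.59, unadjusted p = 0.00040; adjusted p = 0.0018 in DESeq2), between -3.37 and -2.68 with any 1 library left out, and the matched libraries differed by -3.66 and -2.18.

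nhlrc2 (chromosome 12, 30458409 to 30500824), which encodes a protein with NHL repeats, was low in all libraries. It had 0.637, 0.156, 0.305 and 0.344 CPM with A8535 and 1.59, 3.33, 7.92 and 2.46 CPM in Control, from 185 reads in all. The groups did not overlap, and the log2 fold change was -3.38 (SE 0.76, unadjusted p = 0.0012; adjusted p = 0.048 in DESeq2). The matched libraries differed by -3.33 and -1.79.

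eif2b2 encodes a subunit of eIF2B, the exchange factor that recharges initiation factor eIF2. It had 7.01, 2.89, 16.7 and 5.33 CPM with A8535, against 39.7, 38.6, 31.0 and 18.1 CPM in Control. The highest A8535 library, replicate 3, lay just under the lowest Control library. The log2 fold change was -1.99 (SE 0.54, unadjusted p = 0.0041), and the matched libraries differed by -2.12 and -2.86.

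Several other genes with lower fitted levels had both low and high libraries within a group. ndufs4, a subunit gene of respiratory complex I, had 0.455, 2.97, 2.13 and 1.03 CPM with A8535 and 26.2, 40.1, 0.594 and 24 CPM in Control. Control replicate 3 was as low as the A8535 libraries, and A8535 replicate 1, its match, differed from it by -0.29. creld2, a gene of the endoplasmic reticulum stress response, had 2.19, 1.80, 2.56 and 0.687 CPM with A8535 and 1.09, 32.1, 1.58 and 48.9 CPM in Control. rps27a, which encodes ubiquitin fused to a ribosomal protein and can share reads with other ubiquitin genes, had 9.10, 36.7, 9.14 and 3.95 CPM with A8535 and 20.8, 200.9, 238.0 and 16.8 CPM in Control. In both genes the groups overlapped and the Control group held a pair of high and a pair of low libraries.

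Genes with 2 separate levels were counted over the 16 libraries. A gene was taken as switching between levels where its sorted log2 levels left a gap of at least 2.5 with at least 2 libraries on each side and the upper libraries averaged at least 5 CPM (pseudocount 0.5). This held for 97 of 23722 genes (0.409%). The 7 matched pairs of libraries were on the same side in 91.8% to 97.9% of these genes, and the other 113 pairs in 49.5% to 78.4%. Of the 444 genes with a small unadjusted p, 7 were switching genes (1.58%), against 59 of all 15819 tested (0.373%), and none of the 7 genes called by DESeq2 was among them. Some of these genes belong to other organs: the yolk precursor gene vtg5, made in liver, stood at 742 CPM in A8535 replicate 4 and at 0 to 0.634 CPM in the other A8535 libraries, against 37.0 CPM in Control replicate 4 and 0 to 5.46 CPM in the other Control libraries.

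Genes of the oocyte were lower with A8535 as a group, without reaching the adjusted test. Summed over 35 marker genes, the level was 24285, 21966, 16794 and 22617 CPM in the A8535 libraries and 25075, 26469, 30937 and 29159 CPM in the Control libraries. All A8535 libraries lay below all Control libraries (two-sided exact permutation p = 0.0286, the smallest that 4 against 4 libraries can give; 0.514 adjusted over 18 library measures). Of the 35 genes, 33 had a log2 fold change below 0 and the median was -0.33. At an unadjusted p under 0.05, 4 were lower and 0 higher, against 0.702% and 2.11% of all genes tested. Without A8535 replicate 3 and Control replicate 3, 2 of the 35 were lower and the median was -0.18.

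The 4 genes were btg4, which recruits deadenylase to maternal mRNA, zar1, a maternal RNA-binding protein gene, and the egg coat genes zpcx and zp2.5. zar1 had 962, 452, 421 and 1000 CPM with A8535 and 1105, 1591, 1260 and 1232 CPM in Control, with no overlap (log2 fold change -0.87, SE 0.35, unadjusted p = 0.031). A8535 replicates 2 and 3 were the low ones, and the matched libraries differed by only -0.39 and -0.14. btg4 had 70.5, 119.6, 69.0 and 74.5 CPM with A8535 and 370.3, 73.5, 147.3 and 295.2 CPM in Control, where replicate 2 fell inside the A8535 range (log2 fold change -1.41, SE 0.46). zpcx and zp2.5 had log2 fold changes of -1.32 (SE 0.47) and -1.48 (SE 0.60), with overlap.

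Genes of meiotic maturation showed lower values in the same libraries. Of 67 tested, 3 were lower and 2 higher at an unadjusted p under 0.05, with a median of -0.20, against 0.702% lower and 2.11% higher over all genes. Without both libraries of replicate number 3, 1 was lower and 1 higher, and the median was -0.10. ccnb1, the cyclin of maturation promoting factor, had 1174, 612, 681 and 1419 CPM in the A8535 libraries and 1539, 1795, 1804 and 1708 CPM in the Control libraries, and the groups did not overlap (log2 fold change -0.82, SE 0.32, unadjusted p = 0.028). wee2, a kinase that keeps the oocyte arrested, also had every A8535 library below every Control library (-0.61, SE 0.26). In ccna1 the groups overlapped (-0.74, SE 0.33). The other direction was held by pttg1, the securin gene, with 62.6, 144.5, 36.5 and 66.8 CPM with A8535 and 21.6, 57.1, 16.2 and 35.5 CPM in Control. Its groups overlapped, but the matched libraries differed by 1.94 and 1.62 (log2 fold change 1.25, SE 0.49, unadjusted p = 0.030).

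DNA replication genes, which oocytes store, had 1 higher (2.11% over all genes) and 3 lower (0.702%) of 64 and a median of -0.12. With A8535 replicate 3 and Control replicate 3 left out, 1 was higher and 0 lower, with a median of -0.04. The clamp loader gene rfc3 stood at a log2 fold change of -1.90 (SE 0.69) and the polymerase delta subunit gene pold2 one of -0.64 (SE 0.24). For pold2 every A8535 library, at 59.8 to 79.3 CPM, was below every Control library, at 83.6 to 141.5 CPM.

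Granulosa cell markers stood higher with A8535 without passing the adjusted test, and theca markers did not separate the groups. All 16 granulosa cell markers had a log2 fold change above 0, with a median of 0.91, and 2 were higher at an unadjusted p under 0.05 (2.11% over all genes). Their summed level was 205.2, 197.0, 346.7 and 122.1 CPM in the A8535 libraries and 110.0, 168.4, 47.1 and 128.1 CPM in the Control libraries. A8535 replicate 3 was highest, Control replicate 3 lowest, and A8535 replicate 4 inside the Control range (two-sided exact permutation p = 0.0857; 0.514 adjusted). Without both libraries of replicate number 3, none of the 16 passed, 12 stayed above 0 and the median was 0.29. Without Control replicate 3 alone 15 were above 0 (median 0.66), and without A8535 replicate 3 alone also 15 (0.51). Of 6 theca and interstitial markers, 3 had a log2 fold change above 0 and 1, nr5a1a, was higher at an unadjusted p under 0.05. Their summed level was 459.7 ± 101.7 CPM with A8535 and 492.2 ± 111.5 CPM in Control (SD, n = 4 each).

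In the list of steroid synthesis and gonadotropin signaling, 8 of 64 tested genes were higher and 0 lower, against 2.11% and 0.702% of all genes, with a median of 0.21. Without A8535 replicate 3 and Control replicate 3, 1 of 63 was higher, and the median was 0.23. Besides nr5a1a, the 8 genes higher with all libraries were the transcription factor genes gata4, gata6 and runx1, the receptor genes ar and pgr, the phospholipase gene pla2g4aa and hsd3b1. hsd3b1, whose enzyme makes progesterone and androstenedione, had 26.9, 8.04, 46.5 and 18.3 CPM with A8535 and 13.7, 10.3, 4.95 and 6.82 CPM in Control. A8535 replicate 2 fell inside the Control range (log2 fold change 1.48, SE 0.55, unadjusted p = 0.022; 0.79 without A8535 replicate 3 and Control replicate 3). gata6 stood at a log2 fold change of 1.48 (SE 0.50) and gata4 at one of 1.57 (SE 0.61).

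The study picked lhcgr, cyp19a1a and an hsd3b gene, which it gives without a number, on these samples, so their direction is not independent evidence. It called their upregulation weak. In the culture media it found no significant difference from controls in estradiol, testosterone or the other steroids measured. lhcgr, the receptor for luteinizing hormone, had 16.7, 5.07, 28.9 and 8.08 CPM with A8535 and 7.47, 2.19, 2.97 and 9.00 CPM in Control. The groups overlapped (log2 fold change 1.44, SE 0.66, unadjusted p = 0.053). The ovarian aromatase gene cyp19a1a, whose enzyme makes estradiol, averaged 23.7 ± 9.08 CPM with A8535 and 14.1 ± 5.02 CPM in Control (SD, n = 4 each), a log2 fold change of 0.75 (SE 0.39). The other numbered gene, hsd3b2, stood at 47.5 ± 17.3 CPM with A8535 and 66.6 ± 13.8 CPM in Control, a log2 fold change of -0.49 (SE 0.29). Of lhcgr, cyp19a1a, hsd3b1 and hsd3b2, only hsd3b1 passed an unadjusted p of 0.05.

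Every gene with an unadjusted p under 0.05 in the collagen and matrix glycoprotein lists was higher with A8535. Of 32 collagen genes tested, 6 were higher (2.11% over all genes) and 0 lower (0.702%) at an unadjusted p under 0.05, with a median of 0.80, and 21 were above 0. col18a1a, a basement membrane collagen, had 112.8, 55.2, 67.3 and 32.1 CPM with A8535 and 26.9, 29.1, 29.9 and 25.5 CPM in Control. The groups did not overlap, and the Control libraries were close together (log2 fold change 1.26, SE 0.36, unadjusted p = 0.0054). col12a1b, a fibril-associated collagen, had no overlap either (1.51, SE 0.49), while col6a1 (1.28, SE 0.51) and col6a2 (1.43, SE 0.57) did overlap. Without A8535 replicate 3 and Control replicate 3, 2 of the 32 were higher and the median was 0.32. Over all genes, only 186 passed in that setting, 54.8% of them higher.

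Of 45 matrix glycoprotein and proteoglycan genes, 8 were higher (2.11% over all genes) and 0 lower (0.702%), 34 were above 0, and the median was 0.61. The laminin gene lama5, a basement membrane component, had 53.4, 15.8, 61.1 and 22.1 CPM in the A8535 libraries and 18.4, 9.83, 11.7 and 9.82 CPM in the Control libraries. A8535 replicate 2 fell inside the Control range (log2 fold change 1.62, SE 0.47, unadjusted p = 0.0067). thbs1b, a thrombospondin gene, had no overlap, with 49.7, 44.2, 64.1 and 32.99 CPM against 24.9, 24.8, 6.93 and 20.9 CPM in Control (1.3, SE 0.41). Of the 45 genes, 2 were higher without A8535 replicate 3 and Control replicate 3, with a median of 0.38, again beside 186 of all genes (54.8% higher).

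Integrins, the cell surface receptors for matrix, had 2 higher and 0 lower of 20, against 2.11% and 0.702% over all genes. They were itgb8 (1.96, SE 0.59) and itga1 (1.76, SE 0.60), and the median was 0.36. Genes of the focal adhesion plaque inside the cell had 0 higher and 0 lower of 75 and a median of 0.05. Cell adhesion molecules had 2 higher of 55, jam3b and sele, and claudins, tight and gap junction proteins had 1 of 22, cldn11a. With A8535 replicate 3 and Control replicate 3 left out, integrins had 1 higher and a median of 0.03, and focal adhesion genes 1 higher and 0.10. Cell adhesion molecules then had 0 higher, and junction proteins had 0 higher and 1 lower.

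The TGF-beta, BMP and activin list had 4 higher (2.11% over all genes) and 0 lower of 66 with a median of 0.12. Besides bmpr2b, these were the type I receptor gene bmpr1bb (0.88, SE 0.38) and the Smad corepressor genes skila (0.74, SE 0.29) and skia (1.08, SE 0.45). skila had 37.7, 42.5, 44.5 and 36.7 CPM with A8535 and 32.8, 27.8, 18.1 and 17.7 CPM in Control, with no overlap. In the other direction lay bmpr1aa, also a type I receptor gene (-0.73, SE 0.34, unadjusted p = 0.057 in edgeR). It had 22.9, 13.6, 12.5 and 24.8 CPM with A8535 and 26.8, 26.8, 42.7 and 26.4 CPM in Control, again with no overlap. Summed over the list, levels were 2262 to 2753 CPM with A8535 and 2517 to 2907 CPM in Control. Without A8535 replicate 3 and Control replicate 3, 2 of the 67 genes of the list then tested were higher and 1 lower.

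Blood and lymphatic vessel genes had 8 higher (2.11% over all genes) and 0 lower (0.702%) of 74, with 59 above 0 and a median of 0.45. notch1b, a Notch receptor gene of arteries, had 8.01, 8.97, 14.7 and 7.90 CPM with A8535 and 5.46, 4.31, 1.88 and 2.82 CPM in Control, with no overlap (1.45, SE 0.47, unadjusted p = 0.012). The endothelial transcription factor gene sox7 had none either, at 2.73 to 6.82 CPM with A8535 and 1.29 to 2.27 CPM in Control (1.49, SE 0.51), and its matched libraries differed by 1.00 and 1.198. kdr, a VEGF receptor gene, had 3.55, 1.33, 3.66 and 2.49 CPM with A8535 and 1.18, 1.14, 0.891 and 1.36 CPM in Control. The lowest A8535 library fell just inside the Control range (1.26, SE 0.57, unadjusted p = 0.0496). Its paralog kdrl, the more abundant endothelial receptor, had a log2 fold change of 0.39 (SE 0.44). The other abundant endothelial markers lay on the lower side, with overlap. flt4 averaged 12.9 CPM with A8535 and 20.5 CPM in Control (-0.67, SE 0.37), and erg had -0.16 (SE 0.61). Without A8535 replicate 3 and Control replicate 3, 0 of the vessel genes were higher, 1 was lower, and the median was 0.15.

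By the median over each list, A8535 replicate 3 was the highest and Control replicate 3 the lowest library for smooth muscle, fibroblast, endothelial and leukocyte markers. Against 2.11% of all genes higher, smooth muscle and pericyte markers had 2 higher of 10 (median 0.76), fibroblast markers 0 of 9 (1.02), endothelial markers 1 of 14 (0.60) and leukocyte markers 2 of 13 (1.25). Without both libraries, smooth muscle markers had 1 higher (0.56) and the others 0, with medians of 0.25 for fibroblast, 0.18 for endothelial and 0.21 for leukocyte markers. The smooth muscle myosin gene myh11a had 35.2, 17.0, 13.3 and 9.79 CPM with A8535 and 8.64, 6.01, 6.63 and 7.55 CPM in Control, with no overlap (1.38, SE 0.45). The macrophage receptor gene csf1ra had 2.82, 3.43, 16.4 and 3.61 CPM with A8535 and 2.43, 1.54, 0.297 and 2.36 CPM in Control. Its values were apart by little except in A8535 replicate 3 and Control replicate 3 (1.98, SE 0.80; 0.64 without both). Summed leukocyte markers ranged from 112.0 to 562.3 CPM with A8535 and from 47.0 to 246.9 CPM in Control, and summed smooth muscle markers from 299.5 to 448.2 CPM with A8535 and from 239.4 to 342.8 CPM in Control. Sums over a list did not always place the libraries alike: A8535 replicate 2 had the highest smooth muscle sum, and Control replicate 3 the highest endothelial sum of its group. The part that these cells play in the matrix, vessel and steroid gene values was not tested.

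Complement and coagulation genes had 5 higher (2.11% over all genes) and 0 lower of 33, and 0 higher without A8535 replicate 3 and Control replicate 3. c4, a complement component gene, had 22.3, 16.8, 18.5 and 18.6 CPM with A8535 and 14.5, 11.9, 7.82 and 8.64 CPM in Control, with no overlap (0.83, SE 0.33). The fibrinogen gene fgg, made in liver, reached 21.2 CPM in A8535 replicate 4 and 0.364 to 3.53 CPM in the other A8535 libraries, against 0.168 to 1.09 CPM in Control. Liver markers summed to 20.3, 145.8, 30.5 and 5071 CPM with A8535 and 52.6, 30.7, 12.0 and 314.8 CPM in Control, so that the level of replicate 4 was many times that of any other library. Pancreas markers summed to 124.3, 138.9, 270.7 and 25.0 CPM with A8535 and 21.3, 40.1, 10.1 and 144.1 CPM in Control, with the groups overlapping.

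All 13 mitochondrially encoded genes had a log2 fold change above 0 (median 1.24), and 4 were higher at an unadjusted p under 0.05 (2.11% over all genes). The 13 genes are not independent observations. COX2, a subunit of cytochrome oxidase, had 833, 9486, 2613 and 678 CPM with A8535 and 643, 1679, 238 and 974 CPM in Control. Only A8535 replicates 2 and 3 were above the Control range (log2 fold change 1.95, SE 0.87; 0.67 without A8535 replicate 2). Without that library none of the 13 passed and the median was 0.48. None passed without A8535 replicate 3 and Control replicate 3 (median 1.09), while 9 passed without A8535 replicate 4 (median 1.54). Nuclear respiratory chain genes had 2 higher (2.11% over all genes) and 1 lower (0.702%) of 84, with a median of 0.20. Mitochondrial ribosomal protein genes had 0 of 75 and a median of 0.17. Both medians changed sign without A8535 replicate 2, to -0.13 and -0.26, and in limma-voom, to -0.135 and -0.175.

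Cytosolic ribosomal protein genes had 2 higher (2.11% over all genes) and 1 lower (0.702%) of 83, with a median of 0.32. The median was 0.047 without A8535 replicate 2 and -0.058 in limma-voom. rpl30 had the largest log2 fold change of the genes named here, 4.38 (SE 1.38), from 5.73, 36.0, 410.7 and 3.01 CPM with A8535 and 3.69, 7.64, 3.66 and 6.82 CPM in Control. A8535 replicate 4 was the lowest of all 8 libraries, and without A8535 replicate 3 and Control replicate 3 the log2 fold change was 1.299.

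Immediate early genes, which answer receptor signaling quickly, had 3 higher and 0 lower of 65, against 2.11% and 0.702% over all genes, with a median of 0.17. Leaving out A8535 replicate 3 and Control replicate 3 gave 1 higher and a median of 0.01. sik1, a kinase gene induced by cyclic AMP, had 27.4, 19.2, 36.0 and 19.8 CPM with A8535 and 9.99, 14.1, 5.25 and 12.6 CPM in Control. The groups did not overlap, and the matched libraries differed by 2.35 and 0.98 (log2 fold change 1.29, SE 0.39, unadjusted p = 0.0082). klf11b (0.88, SE 0.36) and zfp36l1b were the others. Glycolysis genes had 2 higher of 58 and a median of -0.03, and markers of tissue stress 0 of 21 and -0.21.

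**Figure D3:**
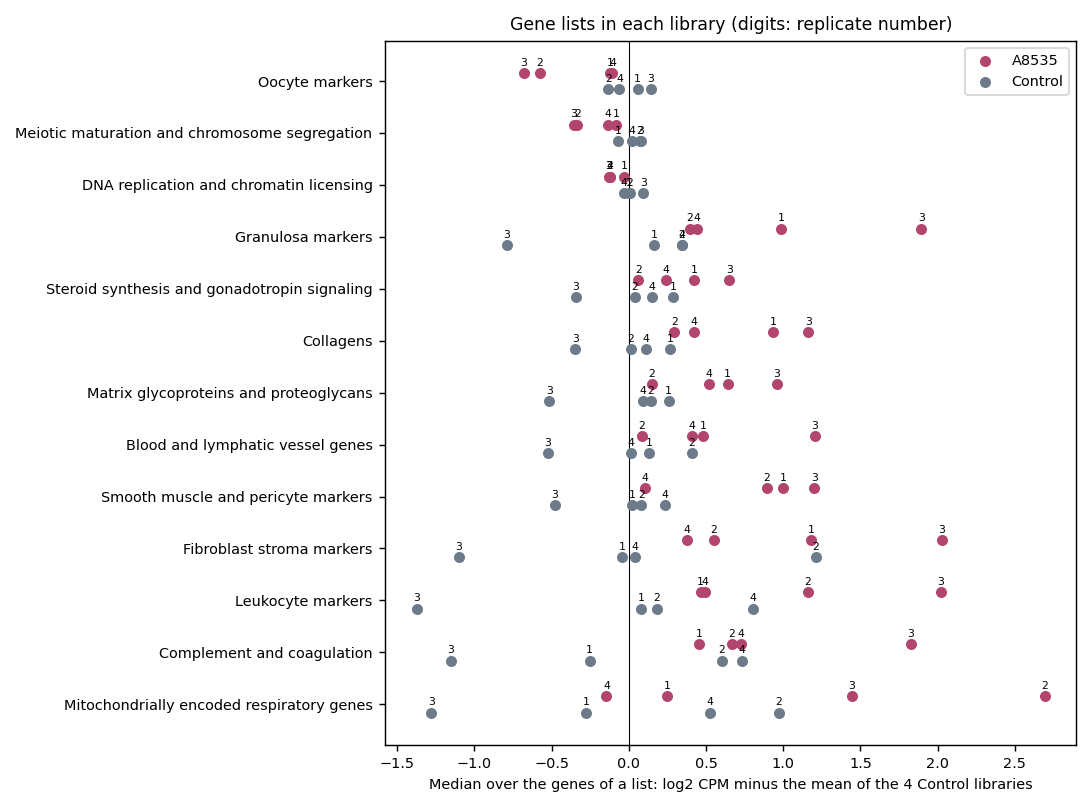
Gene lists and cell type markers in each library. The x axis is the median over the genes of a list of log2 CPM minus the mean of the 4 Control libraries, points are libraries with replicate numbers, and A8535 replicate 3 and Control replicate 3 lie at the ends of most somatic lists.

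Genes that the study chose on these samples for PCR included steap4 and tmsb4x, besides caprin1a and rpl36a. By PCR the study found no significant change between treatments in any gene. It did find a significant regression between PCR levels and sequencing counts in most of the chosen zebrafish genes. steap4, a metalloreductase gene, had 70.5, 107.8, 362.1 and 41.3 CPM with A8535 and 43.8, 36.1, 9.60 and 50.7 CPM in Control. A8535 replicate 4 fell inside the Control range, and A8535 replicate 3 was far above all others (log2 fold change 2.05, SE 0.70, unadjusted p = 0.015; 0.75 without A8535 replicate 3 and Control replicate 3). tmsb4x, which encodes the actin-binding thymosin beta 4, had 126.3, 881.8, 403.4 and 89.4 CPM with A8535 and 69.2, 142.0, 39.4 and 118.5 CPM in Control (2.02, SE 0.71, unadjusted p = 0.017). Replicates 2 and 3 carried the difference.

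Summing the rows of a gene changed which genes stood out. With rows kept apart, 17377 rows were tested and 431 had an unadjusted p under 0.05 (2.48%), from 429 genes. Of these rows, 102 belonged to 100 genes with more than 1 row, and 43 of the 100 genes still had an unadjusted p under 0.05 after summing. A total of 371 genes had it in both fits.

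hells, a chromatin remodeling helicase gene, had a small p on its primary row (unadjusted p = 0.00010). That row held 12.3, 7.03, 6.61 and 9.77 CPM in the A8535 libraries and 54.3, 38.3, 65.2 and 28.0 CPM in the Control libraries, but the alternate row held more reads, with 60.0, 63.2, 43.9 and 104.9 CPM against 99.6, 69.1, 78.6 and 100.7 CPM in Control. Together they gave 72.4, 70.15, 50.3 and 114.9 CPM with A8535 and 154.2, 106.5, 145.0 and 128.1 CPM in Control. A8535 replicate 4 then fell inside the Control range, and the log2 fold change was -0.79 (SE 0.28, unadjusted p = 0.018), against -2.38 for the primary row and -0.36 for the alternate row.

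In other genes the difference between rows went away when they were summed. akirin1, which encodes a nuclear cofactor of transcription, had 0.909, 34.7, 33.4 and 0.857 CPM on its alternate row with A8535 and 0.785 to 2.95 CPM in Control, a log2 fold change of 3.52. The primary row was low in the same A8535 replicates 2 and 3, and the sum was 70.17 to 77.7 CPM with A8535 and 69.7 to 100 CPM in Control (log2 fold change -0.16, SE 0.21). The ribosomal protein gene rpl21 stood at 3.14 on its primary row and at -0.36 (SE 0.40) in the sum, and capza1b, an actin capping protein gene, at -3.10 on its primary row and at 0.36 (SE 0.45) in the sum. In capza1b the primary row was high in Control replicate 4 alone, where the alternate row was low.

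**Figure D4:**
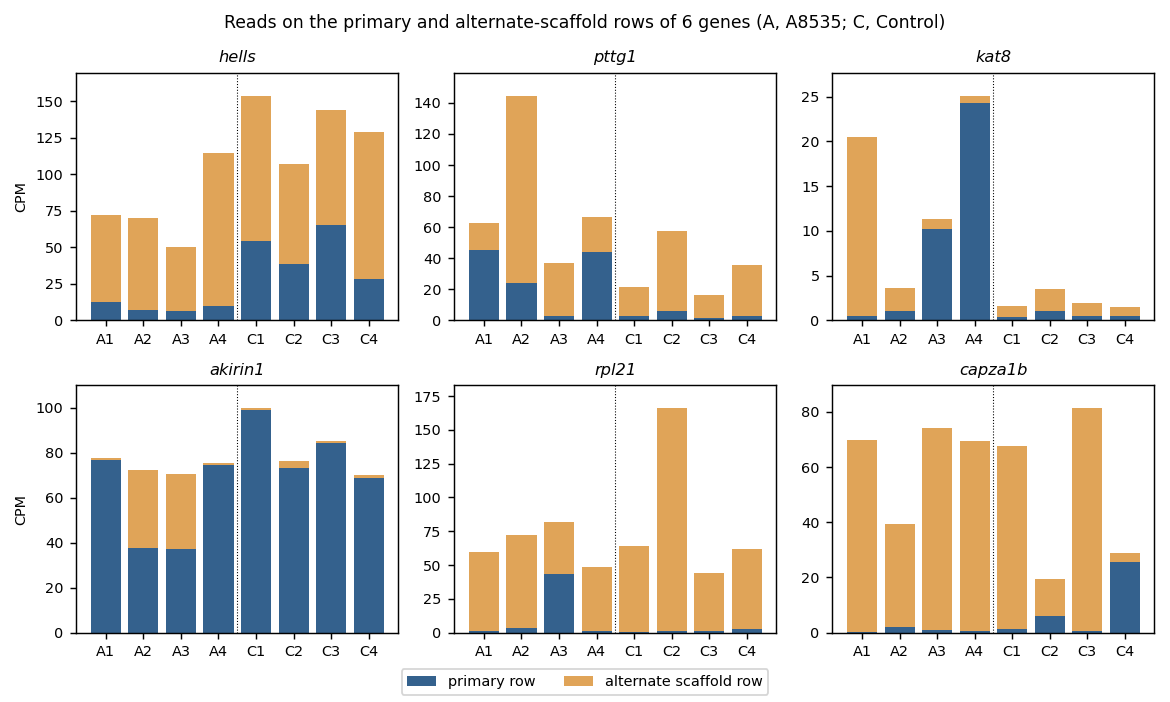
Normalized counts (CPM) on the primary row and on the alternate-scaffold row of 6 genes in the A8535 (A1 to A4) and Control (C1 to C4) libraries, stacked so that a bar's height is their sum. hells, pttg1 and kat8 keep a difference in the sum, while in akirin1, rpl21 and capza1b reads move between rows.

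The 2 matched pairs of an A8535 and a Control library differed in how far they lay apart. Between A8535 replicate 1 and Control replicate 3, 1934 genes were higher by more than 1 on the log2 scale and 542 lower. Between A8535 replicate 4 and Control replicate 1, 466 were higher and 290 lower. A difference of more than 1 in both pairs was found for 179 higher and 40 lower genes of 15702. With 1 library on each side, these are values of the libraries and carry no test. Of the 24 genes with the smallest p values, 12 higher and 12 lower, 21 had the same sign in both pairs. Both pairs entered the fit that chose the genes, so this is a description.

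Gene lists also differed between the pairs. In A8535 replicate 1 against Control replicate 3 the median log2 difference was 2.08 for granulosa markers, 1.21 for collagens, 1.13 for matrix glycoproteins and 0.99 for vessel genes. In A8535 replicate 4 against Control replicate 1 it was 0.16, -0.00, 0.18 and 0.17 for the same lists. Oocyte markers had -0.34 in the first pair and -0.14 in the second. Control replicate 3 was the lowest Control library for the summed granulosa, fibroblast and leukocyte markers, and the part of this in the first pair's values was not tested.

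A8535 and PT-91, given at the same dose for the same time, were the 1 pair of compounds that could be compared directly, in a fit of all 16 libraries. At an adjusted p under 0.05, edgeR called 0 of 17334 genes (0%) and DESeq2 called 2 (0.0115%). An unadjusted p under 0.05 was found for 389 genes (2.24%), of which 129 were higher with A8535 (0.744%) and 260 lower (1.5%). With independent libraries, a threshold of 0.05 alone would give a larger share than this. One of the genes called by DESeq2 was ndufb4, a complex I subunit gene, at 0.425 to 0.815 CPM with A8535 and at 1.06, 7.98, 1.05 and 35.1 CPM with PT-91. The difference of -4.13 (SE 0.97; adjusted p = 0.020 in DESeq2) rested on PT-91 replicates 2 and 4. The other gene called by DESeq2, LOC103909956, had 0.225 to 1.36 CPM with A8535 and 16.6, 32.9, 1.203 and 0.908 CPM with PT-91, so that PT-91 replicates 1 and 2 were the high ones and the groups overlapped (log2 difference -4.19, SE 1.02; adjusted p = 0.020 in DESeq2). The smallest unadjusted p of a gene named here was that of bcl7bb, a chromatin remodeling subunit gene, with 9.24, 30.3, 9.52 and 13.1 CPM with A8535 and 4.87, 0.998, 2.03 and 3.88 CPM with PT-91. The groups did not overlap, and the log2 difference was 2.39 (95% interval 1.22 to 3.56). As the gene was picked by this p, the separation and the interval are a description.

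The 24 genes chosen on the A8535 libraries did not all set A8535 apart from PT-91. caprin1a had 29.5, 13.2, 16.3 and 19.5 CPM with A8535 and 5.03, 25.0, 15.9 and 33.5 CPM with PT-91 on the scale of the 16 libraries, a log2 difference of -0.02 with a 95% interval of -1.16 to 1.12. The interval leaves room for more than a 2-fold difference either way. kat8 had 2.11, 4.55, 1.73 and 1.57 CPM with PT-91, like the Control libraries, and the log2 difference of A8535 from PT-91 was 2.59 (0.75 to 4.43). For nr5a1a, at 6.41, 10.4, 18.0 and 26.3 CPM with PT-91, it was 0.92 (-0.28 to 2.11), and for arntl2 1.19 (-0.29 to 2.68).

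Of the lower genes, zgc:123096 and eif2b2 stood near 0 with PT-91 against Control (log2 fold changes -0.18 and 0.14). zgc:123096 had 1.62, 35.8, 14.9 and 38.6 CPM with PT-91, a log2 difference of A8535 from PT-91 of -2.87 (95% interval -4.59 to -1.16), and only PT-91 replicate 1 was as low as the A8535 libraries. For eif2b2 the difference was -2.14 (-3.57 to -0.71), and for nhlrc2 -2.14 (-3.63 to -0.64). The genes were picked on the same A8535 libraries, so these differences are descriptions. The A8535 libraries of replicates 3 and 4 were matched with the PT-91 libraries of the same numbers by their alternate-row shares, and the A8535 and PT-91 values against Control share the Control libraries.

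**Figure D5:**
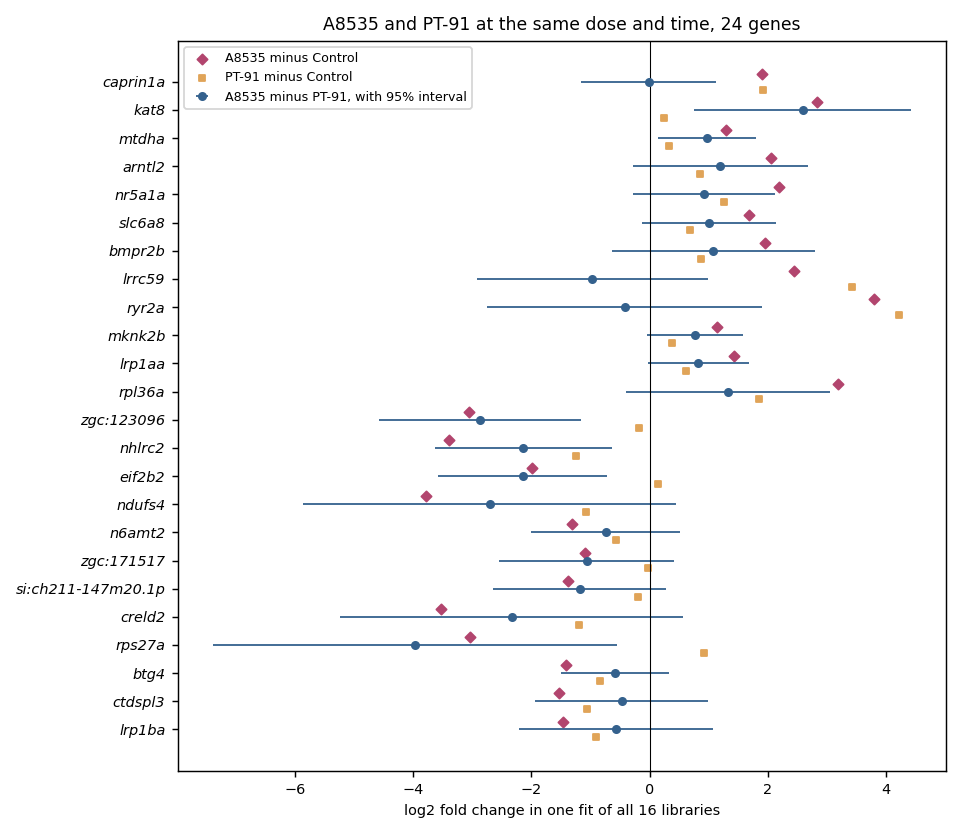
A8535 and PT-91 at the same dose and time in the 24 genes with the smallest p values against Control. Circles with 95% intervals are A8535 minus PT-91, diamonds are A8535 minus Control and squares PT-91 minus Control (log2), all in 1 fit of 16 libraries, and the interval for caprin1a spans 0 while that for kat8 does not.

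At an unadjusted p under 0.05, 0.744% of all genes were higher with A8535 than with PT-91 and 1.5% lower. Among gene lists, A8535 lay above PT-91 in collagens (median log2 difference 0.54, with 3 of 34 higher and 0 lower) and matrix glycoproteins (0.54, with 3 of 52). It lay below PT-91 in mitochondrial ribosomal protein genes (-0.60, with 3 of 75 lower) and nuclear respiratory chain genes (-0.45, with 2 of 86). Other lists had similar medians with few or no genes passing. These were mitochondrially encoded genes (-0.66, 0 of 13 lower) and cytosolic ribosomal protein genes (-0.43, 1 of 84 lower). On the higher side they were integrins (0.50, 0 of 26 higher), complement and coagulation genes (0.48, 1 of 44 higher) and semaphorins, plexins and neuropilins (0.45, 1 of 41 higher). The median over all genes was 0.04. Liver markers (4.42), pancreas markers (3.23) and pancreatic enzyme genes (2.75) differed more than any of these, with 6 of 10, 4 of 10 and 5 of 14 higher. In the liver markers A8535 replicate 4 stood apart from all A8535 and Control libraries.

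PNX-20 was given at 100 nM, a different dose, so its values only stand beside those of A8535. In the fit of 16 libraries, edgeR called 0 of 17334 genes (0%) at an adjusted p under 0.05 and DESeq2 called 1 (0.00577%), gadd45ga. An unadjusted p under 0.05 was found for 704 genes (4.06%), of which 379 were higher with A8535 (2.19%) and 325 lower (1.87%). Here too the threshold of 0.05 alone would give a larger share with independent libraries. caprin1a had 5.47, 28.7, 20.7 and 27.3 CPM with PNX-20, and kat8 had 1.25, 6.31, 1.61 and 29.6 CPM, with 1 library as high as the highest with A8535. nr5a1a stood at 3.12, 3.35, 11.9 and 5.39 CPM with PNX-20. gadd45ga, a growth arrest gene, was at 12.8, 45.7, 7.14 and 20.2 CPM with A8535 and 1.80, 3.51, 0.892 and 1.46 CPM with PNX-20, with 1.41, 12.21, 14.2 and 31.2 CPM in Control.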

How the data were processed

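Poly A RNA of cultured zebrafish ovary was sequenced in 16 libraries, 4 per group. Per the submitters' processing notes and the study's methods, the authors ran fastp, HISAT2 2.0.5 on GRCz11 and then featureCounts 1.5.0-p3. The deposited raw read counts were used here, and no strand setting or multi-mapping rule is given in the sources used here. The same tables also hold counts normalized by the authors, their group means, FPKM, log2 fold changes, p-values and adjusted p-values, which were not used. The table lists rows with at least 2 reads over its 8 libraries. Alternate-scaffold rows (4282 of 28228, 6.48% of reads) were summed with the row of the same gene. Library totals of 10416355 to 15104959 reads limit precision mainly for genes of a few CPM, and elsewhere the spread between libraries does.

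The main tool was edgeR 4.0.16 in R 4.3.3 (filterByExpr, TMM scaling, robust quasi-likelihood F test, Benjamini-Hochberg over all genes tested), 4 A8535 against 4 Control libraries with no covariate. CPM are TMM-scaled. Log2 fold changes are A8535 minus the other group with standard errors from the F statistic, and log2 CPM used a prior count of 2. A8535 was compared with PT-91 and PNX-20 in a fit of all 16 libraries over the 23722 genes in all 3 tables. Library measures were compared by two-sided exact permutation (70 splits). DESeq2 1.42.0, limma 3.58.1 (voom with sample weights), RLE scaling, no filter, a minimum of 1 CPM in 4 libraries, rows kept apart, a replicate block, 1 fit of 16 libraries and each library left out were alternatives. The test was tried on simulated data. Tables and figures were made in Python 3.11.15 with pandas 2.3.3, scipy 1.17.1 and matplotlib 3.10.9. The study's methods put the sections of a fish in wells with different treatments, and no label names the fish of a library. The p-values measure the spread between these libraries.

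Lists (22 of gene groups, 13 of cell type markers) were written from general knowledge. The members and lists were chosen with earlier results of these data known. Named genes were the 12 higher and 12 lower of smallest p, leaving out genes that lack a symbol or have a mean log2 CPM under 0, genes the study names, the receptor list, up to 4 list members with the smallest p and members of the other direction, genes called by DESeq2, the 6 genes moved most by summing, and abundant markers. Only some of them are described, a choice made after their values were seen. Members of a list at an unadjusted p under 0.05 beyond those 4, and vtg5, bcl7bb, gadd45ga, ndufb4 and LOC103909956, were named outside this rule after their values were seen.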

Additional observations from a re-analysis of the deposited data

Results flagged for a closer look

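In 8 of 84 groups of 4 libraries the highest or lowest library lay far from the other 3 by Dixon's test at the 95% level, where chance alone gives about 5% of groups. Summed erythrocyte markers were at 113.6 CPM in A8535 replicate 2 and at 81.9 CPM in Control replicate 4, above 17.8 to 25.9 CPM in the other A8535 libraries and 14.1 to 17.3 CPM in the other Control libraries. Summed liver markers were at 5071 CPM in A8535 replicate 4 and at 314.8 CPM in Control replicate 4. Among single genes, mtdha was at 110.1 CPM in A8535 replicate 3, rps27a at 36.7 CPM and btg4 at 119.6 CPM in A8535 replicate 2, and arntl2 at 5.55 CPM in Control replicate 4. Each was the highest library of its group.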

How the results depend on the processing

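With an adjusted p of 0.05, edgeR called 0 genes in all 3 comparisons with any library left out, while DESeq2 called 7 against Control, 2 against PT-91 and 1 against PNX-20. The unadjusted count against Control (444) was 782 with no filter, 702 in DESeq2, 186 without A8535 replicate 3 and Control replicate 3 together, and 206 to 809 with 1 library left out. The share that was higher with A8535 (75.0%) was 79.68% with RLE scaling, 63.94% with no filter, 79.34% in DESeq2, 63.1% in limma-voom, 67.58% in 1 fit of 16 libraries, 54.84% without those libraries and 58.33% to 88.27% with 1 left out. Against PT-91 (389) the count was 779 with no filter, 611 in DESeq2 and 238 to 1567 with 1 library left out, the highest without A8535 replicate 2 (1567) and the lowest without PT-91 replicate 1 (238); it was also 1321 and 615 when replicate 4 or 3 of PT-91 was dropped. Against PNX-20 (704) it was 415 to 1094 with 1 library left out, with 415 without PNX-20 replicate 1 and 1094 without replicate 4. The cause was not tested.

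Between A8535 and Control, libraries of numbers 1, 3 and 4 did not deviate together (correlations of -0.21, -0.17 and -0.26). Those of number 2 did so weakly (0.27), the highest correlation of A8535 replicate 2 with a Control library. The number was therefore not taken as a pair. In alternate-row shares A8535 replicates 3 and 4 did match libraries of their own number with PT-91, and replicate 3 with PNX-20, but no other A8535 library matched one of its own number. A replicate block gave 236 genes against Control, of which 57.2% were higher, 426 against PT-91 and 666 against PNX-20, with 0 at an adjusted p under 0.05 in each.

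Of 92 genes recomputed under each alternative, 4 changed sign. smim20 was at -0.26 in limma-voom and -0.21 without A8535 replicate 2 (-0.21 to 0.89 with any library left out). adrbk2 was at 0.29 in limma-voom, 0.034, 0.089 and 0.068 without A8535 replicate 2, Control replicate 1 and Control replicate 3, and 0.11 without both libraries numbered 3 (-0.47 to 0.089 with any left out). arrb2b was at -0.17, -0.017 and -0.0044 without A8535 replicate 4, Control replicate 2 and Control replicate 4 (-0.17 to 0.23). rpl21 was at 0.20 without Control replicate 2 (-0.57 to 0.20). Of the other values of these genes, 1453 kept their direction and side of the threshold and 7, all in DESeq2, passed an adjusted p of 0.05. Many of the genes were picked by their p in these same libraries, so that the kept directions are a description and test nothing. Of the list medians, 27 moved by more than the SD between libraries and 533 did not. Depth limits genes such as gpr27 and nhlrc2, and the spread between libraries limits the rest.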

Other observations

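Among lists not described above, semaphorins, plexins and neuropilins, which guide axons and vessels, had 0 higher and 0 lower of 40 and a median log2 fold change of 0.13. Islet hormone and insulin secretion genes had 3 higher (2.11% over all genes) and 0 lower of 44 (median 0.08), and 2 higher without A8535 replicate 3 and Control replicate 3. Besides ryr2a these were atp1b1a and gcga, the glucagon precursor gene, which had 34.2, 127.5, 158.3 and 16.1 CPM with A8535 and 9.40, 28.8, 2.97 and 35.9 CPM in Control. The groups overlapped (log2 fold change 2.12, SE 0.85, unadjusted p = 0.032), and gcga was at 16.1 CPM in A8535 replicate 4, under the highest Control library. Pancreatic enzyme genes had 0 of 9, and their medians were high in A8535 replicates 1 and 3 and in Control replicate 4.

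The surface epithelium marker krt18, a keratin gene, had 22.7, 62.9, 279.7 and 40.9 CPM with A8535 and 29.1, 54.4, 13.2 and 24.1 CPM in Control. A8535 replicate 3 alone was far above the rest, and the log2 fold change of 1.75 (SE 0.75) was 0.23 without A8535 replicate 3 and Control replicate 3. Skeletal muscle markers (0 of 5) and erythrocyte markers (0 of 7) had no gene at an unadjusted p under 0.05.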
